A study of Saccharomyces cerevisiae and Kluyveromyces lactis with 95 samples.

Results

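Amino acid permeases of the yeast plasma membrane were followed by their mRNA through inhibition of protein kinase A (PKA). The 10 *S. cerevisiae* genes *GAP1*, *AGP1*, *GNP1*, *BAP2*, *BAP3*, *TAT1*, *TAT2*, *DIP5*, *MUP1* and *HIP1* were chosen by name as permease genes, by a rule that uses no measured value but with earlier results of these data known, from 6600 genes in the count tables, and all 10 were among the 5779 genes that passed the filter on low counts. In *K. lactis*, 6 of 5534 genes carried a member's name in the authors' ortholog column, and all 6 were among the 5271 tested. They were the orthologs of *GAP1* (KLLA0A06930g), *TAT2* (KLLA0A10813g), *HIP1* (KLLA0A11770g), *MUP1* (KLLA0B13233g) and *DIP5* (KLLA0E16281g), and a single gene that stands for both *AGP1* and *GNP1* (KLLA0C01606g). No row of the *K. lactis* table was named for *BAP2*, *BAP3* or *TAT1*.

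PKA-AS strains carry an analog-sensitive form of PKA, so that the ATP analog 1-NM-PP1 blocks the kinase. PKA-WT strains keep the native kinases. Each strain had either lost *MSN2* and *MSN4* (ΔMsn2/4), lost *RPH1* and *GIS1* (ΔRph1/Gis1), lost all 4 genes, or had no deletion, and in *K. lactis* the shared ortholog of each pair was deleted, in PKA-AS only. A culture growing exponentially in the rich medium YPD was divided into a part that received 3 µM 1-NM-PP1 (drug) and a part that received the solvent DMSO, and both were collected after 50 min. There were 4 cultures per PKA-AS group and 3 per PKA-WT group in *S. cerevisiae*. *K. lactis* had 4 per PKA-AS group, 3 in each group lacking both orthologs, and 3 drug and 2 DMSO cultures of PKA-WT. Each strain is a single background (W303 with auxotrophies that include *leu2*, *his3* and *trp1* in *S. cerevisiae*), and the *S. cerevisiae* PKA-AS strain also carries a nuclear NHP6A-iRFP marker.

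Yeast takes up amino acids through a family of related permeases that differ in breadth and in the signals that set their level. *GAP1* encodes the general permease, used on poor nitrogen sources, while most of the others answer to the SPS sensor, in which Ssy1 at the cell surface detects external amino acids and the transcription factors Stp1 and Stp2 are released to activate permease genes. PKA is active in glucose and promotes growth. When it is shut off, ribosome synthesis declines and stress factors such as Msn2 and Msn4 enter the nucleus.

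The members lie on several chromosomes of the R64 assembly, each as a single uninterrupted coding exon. *TAT1* (YBR069C, chromosome II, 376574 to 378433, minus strand) and *BAP2* (YBR068C, chromosome II, 373861 to 375690, minus strand) are neighbours. *AGP1* (YCL025C) lies on chromosome III from 76018 to 77919 and *GNP1* (YDR508C) on chromosome IV from 1466453 to 1468444, both on the minus strand. *HIP1* (YGR191W) lies on chromosome VII from 880420 to 882231 on the plus strand. *AGP1* and *GNP1*, like *BAP2* and *BAP3*, are a pair of paralogs retained from the whole genome duplication. The stretches from 250 to 101 bases before the start codon are shown for *AGP1*, *GNP1* and *TAT1*, because these 3 genes had called changes that went opposite ways within a paralog pair or differed between the deletion strains. They were read from the RefSeq R64 genome, 5′ to 3′ on the strand of the gene, at chrIII:78020-78169, chrIV:1468545-1468694 and chrII:378534-378683. Capitals mark CCCCT, the core of the stress response element bound by Msn2 and Msn4, and CGGC, the core of the Stp1 and Stp2 element.
AGP1: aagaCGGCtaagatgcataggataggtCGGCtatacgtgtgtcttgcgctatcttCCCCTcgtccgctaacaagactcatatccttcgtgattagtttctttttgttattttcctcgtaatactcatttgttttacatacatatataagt
GNP1: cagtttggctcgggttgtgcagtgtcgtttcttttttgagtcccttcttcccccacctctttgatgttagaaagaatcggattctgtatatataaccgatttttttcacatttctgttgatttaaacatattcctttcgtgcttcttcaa
TAT1: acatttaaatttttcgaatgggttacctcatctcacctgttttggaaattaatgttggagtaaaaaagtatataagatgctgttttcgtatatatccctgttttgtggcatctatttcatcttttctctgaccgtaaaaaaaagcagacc
*AGP1* held CCCCT once, 195 to 191 bases before the start codon, and CGGC at 2 places, while *GNP1* and *TAT1* held neither. In the whole window from 250 bases before to 50 bases after the start, searched on both strands, CCCCT occurred in 21.6% and CGGC in 47.7% of 6020 promoters. Of the other members, *BAP3* held a CCCCT and *GAP1* held a GATAAG, the site of GATA factors, found in 14.6% of promoters. The element of Rph1 and Gis1 (TAAGGGAT or TTAGGGAT), found in 1.59% of promoters, was in no member's window. A match is a description of these letters only.

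Levels are given as CPM, the reads of a gene scaled to the same total of reads on genes in every culture, after TMM scaling, and changes as log2 fold change (LFC) of drug over DMSO, fitted with edgeR's quasi-likelihood test. A change was called at an adjusted p (Benjamini-Hochberg over all genes tested) below 0.01. Each transcript gives reads from its 3′ end, so CPM was not divided by gene length. The values are shares of the mRNA in a sample, so a change in cells and a change in total mRNA per cell cannot be told apart. Depth, as reads assigned to genes, ran from 188289 to 4715139 per *S. cerevisiae* library, with a median of 2062219. For *K. lactis* the lowest was 815372, the median 2405976 and the highest 4117520. In drug-treated *S. cerevisiae* PKA-AS without deletion, the stress genes *HSP12* (LFC 8.31) and *CTT1* (LFC 8.62) rose and the ribosome genes *RPL3* (LFC -4.78) and *NSR1* (LFC -8.57) fell. In *K. lactis*, *RPL3* (LFC -6.30) and *NSR1* (LFC -6.59) fell, while *HSP12* (LFC 0.45) and *CTT1* (LFC 1.52) were not called. The deleted genes gave a weak check of the labels, since 3′ tags can lie outside the deleted part. *MSN4* had a median of 3.92 CPM in *S. cerevisiae* strains without it and 18.1 CPM in strains with it, with overlapping ranges. *GIS1* had medians of 1.96 CPM where deleted and 2.85 CPM where present, and *RPH1* was at 0 in all cultures, including those that keep the gene, so these counts give almost no check of the *S. cerevisiae* ΔRph1/Gis1 label.

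In *S. cerevisiae* PKA-AS without deletion, PKA inhibition raised *AGP1* and lowered *GNP1*, *HIP1* and *TAT1*. These were 4 of 10 members called (1 higher, 3 lower), where 41.9% of all tested genes were called, so the share of members was near that of the genome. The median LFC over the 10 members was -1.11, against 0.00 over all genes tested. The tyrosine, tryptophan and branched-chain permease gene *TAT1* had the largest change of the 10.

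*TAT1* was at 4.00, 4.02, 8.33 and 7.63 CPM in the drug cultures 1, 2, 3 and 2017, against 158, 132, 116 and 155 CPM in the DMSO cultures. The groups were far apart, and the drug values rested on 8 to 17 reads per culture. The LFC was -4.54 ± 0.28 (SE, n = 4 each, edgeR adjusted p = 1.53e-18), a level 23.3-fold lower with drug.

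*GNP1* encodes the high-affinity glutamine permease, which also carries leucine, serine and threonine among others. It was at 86.0, 96.5, 76.0 and 88.0 CPM with drug, against 336, 327, 484 and 427 CPM with DMSO. No drug culture came near the DMSO range, and the LFC was -2.18 ± 0.28 (SE, n = 4 each, edgeR adjusted p = 4.35e-09).

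*HIP1*, the high-affinity histidine permease gene, was at 73.0, 98.5, 91.7 and 92.7 CPM with drug, against 331, 346, 394 and 335 CPM with DMSO. It fell by 1.98 on the log2 scale, with an SE of 0.21 (n = 4 each, edgeR adjusted p = 5.41e-11), and the groups did not overlap.

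*AGP1*, the low-affinity permease gene of broad range and the paralog of *GNP1*, moved the other way. It was at 351, 274, 279 and 282 CPM with drug, against 120, 122, 142 and 141 CPM with DMSO. Every drug culture was above every DMSO culture, and the LFC was 1.17 ± 0.17 (SE, n = 4 each, edgeR adjusted p = 1.23e-07). The share of *AGP1* in the summed CPM of the paralogs was therefore 77.3% ± 2.8 with drug and 25.3% ± 2.0 with DMSO (SD, n = 4 each), while their sum was 383 ± 37 CPM with drug and 525 ± 87 CPM with DMSO.

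**Figure D1:**
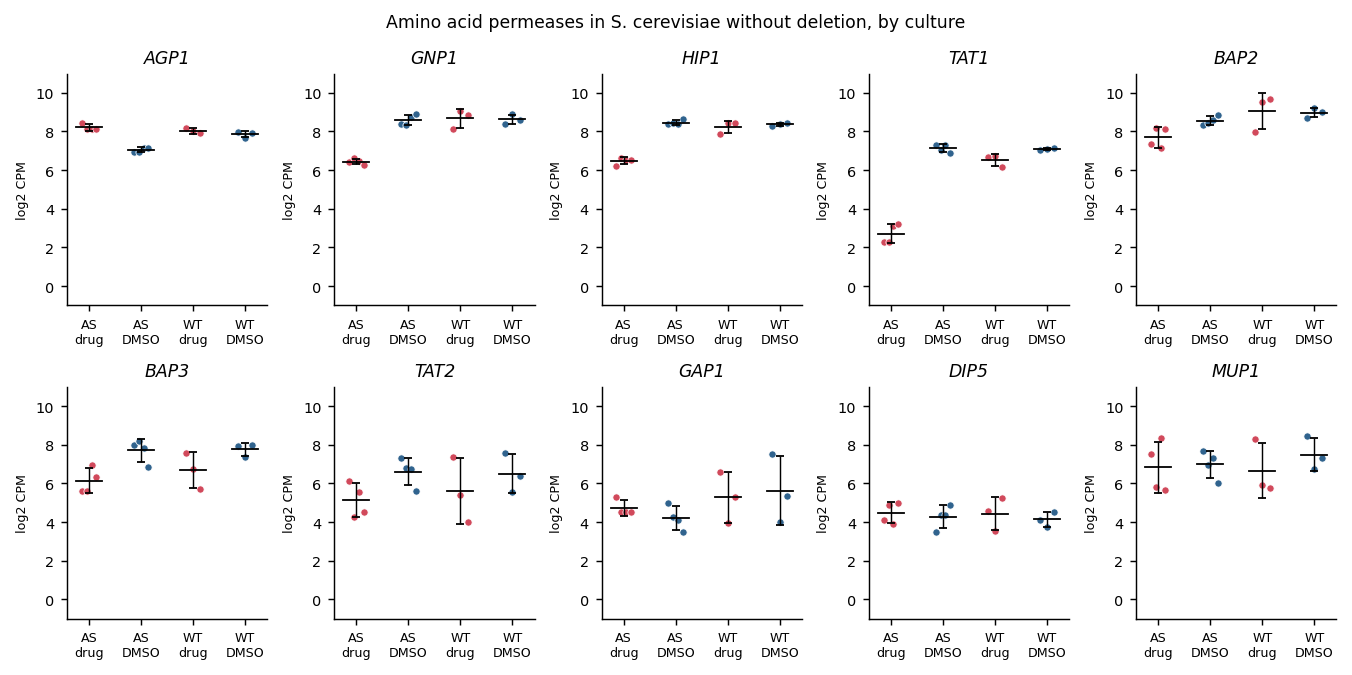
Level of each permease gene in *S. cerevisiae* strains without deletion, as log2 CPM per culture (points), with the group mean and SD (black), for PKA-AS (AS) and PKA-WT (WT) with drug (red) or DMSO (blue). In PKA-AS, *AGP1* lies higher and *GNP1*, *HIP1* and *TAT1* lie lower in every drug culture than in every DMSO culture, while *TAT2*, *MUP1* and *GAP1* spread widely within groups.

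The remaining 6 members were not called in this comparison. *BAP2* and *BAP3*, paralogs that carry leucine, isoleucine and valine, were lower in the drug part of each of the 4 cultures. *BAP2* was at 160, 292, 277 and 141 CPM with drug, against 317, 350, 464 and 385 CPM with DMSO (LFC -0.80 ± 0.40 SE, edgeR adjusted p = 0.0917). *BAP3* was at 48.5, 48.3, 78.9 and 124 CPM with drug, against 254, 287, 115 and 229 CPM with DMSO (LFC -1.56 ± 0.54 SE, edgeR adjusted p = 0.0138). With the culture as a block, since each culture was divided into its drug and DMSO parts, both were called (*BAP2* LFC -0.86, adjusted p = 0.00438; *BAP3* LFC -1.59, adjusted p = 0.00523). *TAT2*, the high-affinity tryptophan permease gene, was at 69.5, 18.6, 22.1 and 46.9 CPM with drug and 156, 112, 47.7 and 106 CPM with DMSO (LFC -1.42 ± 0.87 SE, edgeR adjusted p = 0.171). *GAP1* had an LFC of 0.48 ± 0.70, *DIP5*, the glutamate and aspartate permease gene, of 0.20 ± 0.51 and *MUP1*, the methionine permease gene, of 0.15 ± 0.69 (SE). Their approximate 95% intervals, from -0.89 to 1.84 for *GAP1*, from -0.81 to 1.20 for *DIP5* and from -1.19 to 1.50 for *MUP1*, leave room for changes of more than a doubling either way in *MUP1*.

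The order of the levels differed between drug and DMSO mainly in the places of *AGP1*, *GNP1* and *TAT1*. In the drug cultures *AGP1* led with a mean of 297 CPM, followed by *BAP2* (218), *MUP1* (152), *HIP1* (89.0), *GNP1* (86.6), *BAP3* (74.9), *TAT2* (39.3), *GAP1* (26.4), *DIP5* (22.8) and *TAT1* (5.99). With DMSO the order was *GNP1* (393), *BAP2* (379), *HIP1* (351), *BAP3* (221), *TAT1* (140), *MUP1* (137), *AGP1* (131), *TAT2* (106), *DIP5* (19.7) and *GAP1* (19.0). Neighbours in these orders had overlapping ranges over the 4 cultures, with the exceptions of *TAT1* below *DIP5* with drug and, with DMSO, *BAP3* below *HIP1* and *DIP5* below *TAT2*. The summed level of the 10 members was 937 to 1140 CPM in the drug cultures and 1839 to 1972 CPM in the DMSO cultures.

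The drug effect was next measured in the PKA-AS deletion strains, where it was not tested against that in PKA-WT. The same 4 members were called, in the same directions, in each deletion strain with PKA-AS: 4 of 10 in ΔMsn2/4 (20.7% of all genes called), 4 of 10 in ΔRph1/Gis1 (40.3%) and 4 of 10 in the strain lacking all 4 genes (18.7%). Each of these comparisons has its own DMSO cultures. *TAT1* fell less where Msn2 and Msn4 were absent, as did the ribosome genes by their fitted values, a difference not tested here for them (*RPL3* LFC -2.60 in ΔMsn2/4 and -1.45 without all 4 genes, *NSR1* LFC -5.49 and -5.90). In ΔMsn2/4 it was at 46.5, 41.9, 21.7 and 34.8 CPM with drug, against 130, 110, 118 and 144 CPM with DMSO (LFC -1.73 ± 0.24 SE, edgeR adjusted p = 1.13e-07), with 6 reads behind the lowest drug value. In the strain lacking all 4 genes it was at 53.8, 46.3, 44.9 and 45.9 CPM with drug, against 148, 135, 116 and 139 CPM with DMSO (LFC -1.49 ± 0.23 SE, edgeR adjusted p = 1.38e-06). The fall was still present in every culture of both strains, but the drug level stayed several times above that of the strain without deletion. In ΔRph1/Gis1 *TAT1* was at 9.33, 7.64, 10.2 and 13.6 CPM with drug, against 182, 161, 146 and 130 CPM with DMSO (LFC -3.95 ± 0.26 SE, edgeR adjusted p = 3.53e-17).

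The difference in drug effect between strains was tested as an interaction, and these tests share the cultures without deletion. For *TAT1* it was 2.81 ± 0.35 on the log2 scale for ΔMsn2/4 minus no deletion (edgeR adjusted p = 6.56e-08) and 3.05 ± 0.35 for the strain lacking all 4 genes minus no deletion (edgeR adjusted p = 3.31e-09), with SE. *TAT1* was the 1 member of 10 called in each of these interactions, which called 8.57% and 14.7% of all genes. For ΔRph1/Gis1 minus no deletion, 0 of 10 members were called by edgeR (0.398% of all genes) or by DESeq2. An unadjusted p under 0.05 was found for 1 member and for 429 of all 5779 genes. The *TAT1* interaction was 0.59 with an approximate 95% interval from -0.10 to 1.28. *GNP1* had interactions of 1.13 ± 0.38 for ΔMsn2/4 (adjusted p = 0.0339) and 0.84 ± 0.37 for the loss of all 4 genes (adjusted p = 0.105), which were not called. *HIP1* had an interaction of -0.01 with an approximate 95% interval from -0.58 to 0.56 for ΔMsn2/4.

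**Figure D2:**
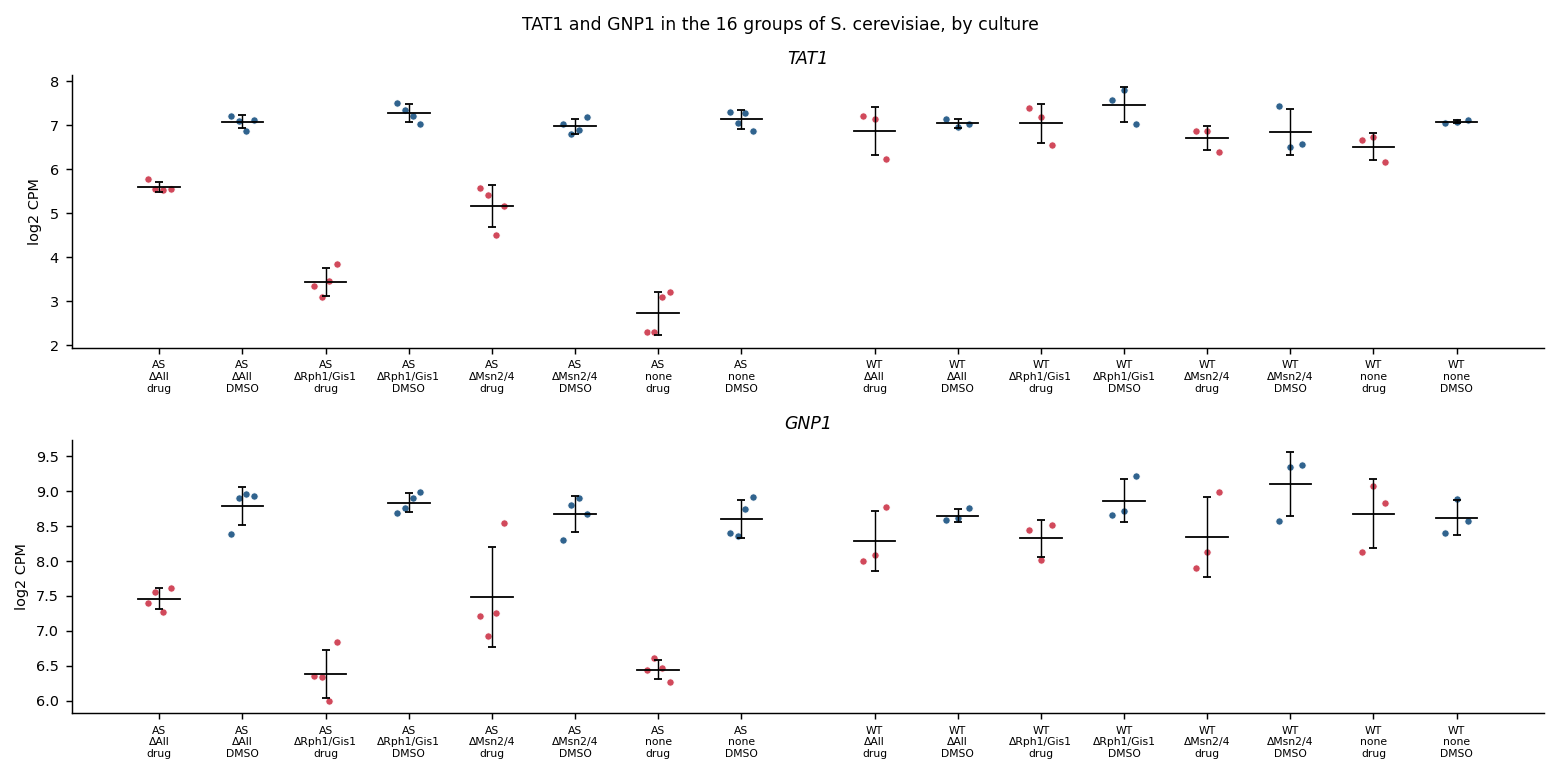
Level of *TAT1* and *GNP1* in the 16 groups of *S. cerevisiae*, as log2 CPM per culture, with group means and SD, drug in red and DMSO in blue, where ΔAll is the strain lacking all 4 genes. *TAT1* with drug averaged 5.99 CPM in PKA-AS without deletion and 10.2 CPM in ΔRph1/Gis1, but 36.2 CPM in ΔMsn2/4 and 47.7 CPM in ΔAll.

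*GNP1* was at 148, 121, 152 and 372 CPM with drug in ΔMsn2/4, against 316, 445, 476 and 408 CPM with DMSO (LFC -1.05 ± 0.27 SE, edgeR adjusted p = 0.00191). Drug culture 4 lay within the DMSO range, so the groups overlapped, and the call was lost without drug culture 1 (-0.93), 2 (-0.87) or 3 (-0.95). In ΔRph1/Gis1 *GNP1* had an LFC of -2.44 and in the strain lacking all 4 genes of -1.35, with no overlap in either. *HIP1* had LFC values of -1.99 in ΔMsn2/4, -2.36 in ΔRph1/Gis1 and -2.54 in the strain lacking all 4 genes, a fall in every PKA-AS strain. *AGP1* had LFC values of 0.78 in ΔMsn2/4, 1.29 in ΔRph1/Gis1 and 0.59 in the strain lacking all 4 genes (edgeR adjusted p = 0.00632 for the smallest). The smallest of these was no longer called when any 1 of 6 of its 8 cultures was left out (LFC from 0.50). Its drug levels had means of 307, 294 and 277 CPM in these 3 strains and 297 CPM without deletion, while its DMSO means were 178, 120 and 184 CPM against 131 CPM without deletion.

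In ΔRph1/Gis1 the groups of *GAP1*, *BAP3* and *DIP5* did not overlap either, without a call. The share of all genes whose groups did not overlap is not given here, so this is no trait of the permeases. *GAP1* was at 28.0 to 107 CPM over the 4 drug cultures, against 6.18 to 18.7 CPM over the DMSO cultures (LFC 2.10 ± 0.70 SE, edgeR adjusted p = 0.0112). *BAP3* (LFC -1.54, adjusted p = 0.0153) and *DIP5* (LFC -1.30, adjusted p = 0.0344) were lower in each drug culture. The *DIP5* drug values rested on 1 to 37 reads per culture, with the lowest at 0.85 CPM. With the culture as a block these 3 were called and the count was 7 of 10. The share of all genes called with the block is not given here, so this count has no baseline. In PKA-WT, *GAP1* also had groups that did not overlap, without being called: it averaged 41.7 CPM with drug and 137 CPM with DMSO in ΔRph1/Gis1 (LFC -1.72 ± 0.77 SE, edgeR adjusted p = 0.441), and 118 CPM with drug and 30.6 CPM with DMSO in the strain lacking all 4 genes (LFC 1.97 ± 0.79 SE, edgeR adjusted p = 0.238). Its means thus also differed, in both directions, in strains with the native kinase. Uncalled groups in PKA-WT were also apart, lower with drug, for *TAT1* without deletion, *GNP1* in ΔRph1/Gis1 and *HIP1* without all 4 genes. In the PKA-AS strain lacking all 4 genes the block also added *BAP2* (LFC -1.25, adjusted p = 0.000231).

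**Figure D3:**
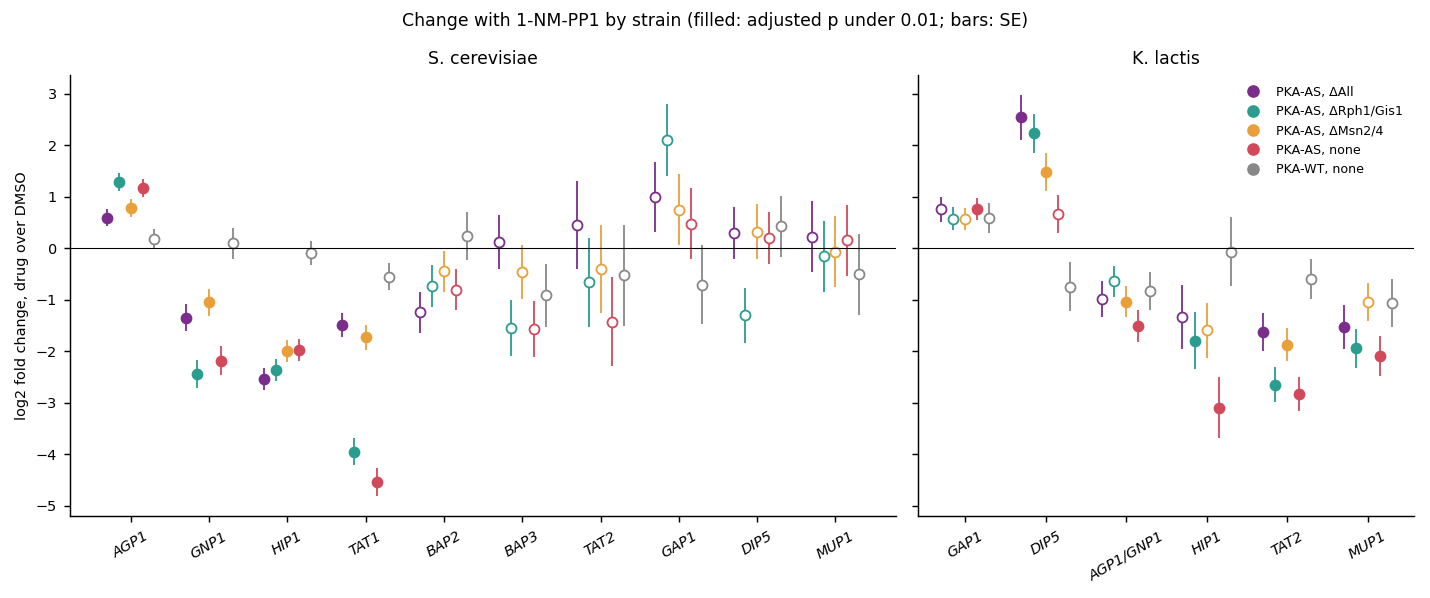
Log2 fold change of drug over DMSO with its SE for each permease gene in the PKA-AS strains lacking all 4 genes (ΔAll), in ΔRph1/Gis1, in ΔMsn2/4 and without deletion, and in PKA-WT, in *S. cerevisiae* (left) and for the orthologs in *K. lactis* (right), with filled points for adjusted p below 0.01. Over the *S. cerevisiae* PKA-AS strains *TAT1* spans from -4.54 without deletion to -1.49 in ΔAll and *HIP1* lies between -1.98 and -2.54, while in PKA-WT without deletion they are at -0.55 and -0.09.

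The same dose in PKA-WT strains measured what the compound does without its target. No member was called there: 0 of 10 without deletion (0.138% of all genes called), in ΔMsn2/4 (0.242%), in ΔRph1/Gis1 (0.138%) and in the strain lacking all 4 genes (0.675%). DESeq2 also called 0 of 10 in each, and 1, 2, 1 and 3 members had an unadjusted p under 0.05 in these strains. Of all 5779 genes, 477, 467, 596 and 890 had such a p. Uncalled values with the sign seen in PKA-AS occurred in the PKA-WT deletion strains. *AGP1* had an LFC of 0.43 ± 0.20 (SE) without all 4 genes, -0.06 in ΔMsn2/4 and -0.0004 in ΔRph1/Gis1. *GNP1* had an LFC of -0.73 ± 0.30 (SE) in ΔMsn2/4, -0.55 in ΔRph1/Gis1 and -0.33 without all 4 genes. *HIP1* was lower in the drug part of every culture of these strains. It averaged 247 CPM with drug and 359 CPM with DMSO in ΔMsn2/4, 268 and 346 CPM in ΔRph1/Gis1, and 248 and 352 CPM without all 4 genes. In the same order *TAT1* averaged 105 and 119 CPM, 135 and 180 CPM, and 121 and 131 CPM. It was lower in every culture in ΔRph1/Gis1 alone. *TAT1* in PKA-WT without deletion was at 100, 105 and 70.6 CPM with drug, against 131, 134 and 139 CPM with DMSO (LFC -0.55 ± 0.26 SE, n = 3 each, edgeR adjusted p = 0.578). The drug effect in PKA-AS minus that in PKA-WT was tested only in the strains without deletion. There it was called for 4 of 10 members (23.6% of all genes). It was -3.99 ± 0.38 for *TAT1*, -2.28 ± 0.41 for *GNP1*, -1.89 ± 0.31 for *HIP1* and 1.00 ± 0.26 for *AGP1* (SE, edgeR adjusted p of 0.00204 or lower).

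Without drug, of 10 members 0 were called in ΔMsn2/4 (0.0692% of all genes), in ΔRph1/Gis1 (1.25%) and in the strain lacking all 4 genes (0.917%), each against PKA-AS without deletion, and 0 in PKA-AS against PKA-WT (0.0%). The counts at an unadjusted p under 0.05 were 1, 0, 1 and 2 (176, 682, 552 and 222 of all 5779 genes), and DESeq2 called 0, 0, 0 and 1. That 1 was *AGP1*, at 120, 122, 142 and 141 CPM in PKA-AS and 253, 204 and 242 CPM in PKA-WT with DMSO (LFC -0.83 ± 0.18 SE, edgeR adjusted p = 0.0914, DESeq2 adjusted p = 0.00409). The DMSO groups did not overlap. *GAP1* had the largest fitted difference of the 10 in that comparison, at 10.4 to 31.1 CPM in PKA-AS and 15.1 to 186 CPM in PKA-WT (LFC -2.08 ± 0.73 SE, edgeR adjusted p = 0.85), with overlapping ranges. The *AGP1* level in PKA-AS with drug, 274 to 351 CPM, was thus near that of PKA-WT with either treatment, 204 to 291 CPM.

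Most members, *HIP1*, *GNP1* and *TAT1* among them, followed a difference between libraries that the groups do not explain. The share of reads that fell on no annotated feature ranged from 3.24% to 11.3% over the *S. cerevisiae* libraries, and in PKA-AS without deletion it was 5.91% to 8.24% with drug and 3.81% to 6.07% with DMSO. This share followed the culture number over strains and treatments: culture 1 lay below its group mean, and culture 3 above it, in every group. *MUP1* lay above its group mean in culture 1 of every group. Over the 56 cultures, each member's deviation from its group mean was set against the deviation of this share (log2 odds). *TAT2* had a Pearson r of -0.95 (rho -0.93, r without the 2 farthest cultures -0.94), *MUP1* of -0.90 (rho -0.90, without them -0.88), *BAP3* of -0.88 (rho -0.86, without them -0.86) and *BAP2* of 0.81 (rho 0.81, without them 0.80). Over the 16 relations computed in both species, the adjusted permutation p was 2e-05 for r in each of these 4 and 1.8e-05 for rho, from the smallest p that 100000 permutations can give. The permutations ignored the pairing of drug and DMSO parts and the culture number. All permutation p-values given here are therefore too small for the number of independent cultures. *HIP1* had an r of 0.82 (rho 0.81, without them 0.80), *GNP1* of 0.72 (rho 0.72, without them 0.70), *TAT1* of -0.68 (rho -0.66, without them -0.62) and *DIP5* of 0.56 (rho 0.64, without them 0.53), with the same adjusted p. *GAP1* had an r of -0.51 (rho -0.54, without them -0.48, adjusted permutation p = 0.000142 for r and 1.8e-05 for rho), so 9 of 10 members moved with the share. How many of all genes moved with it is not given here, so this is no trait of the permeases. The first principal component of such deviations held 64.6% of their variance over 4626 *S. cerevisiae* genes. Its relation to the no-feature share was not tested. Of the *K. lactis* orthologs, that of *MUP1* had the largest r, 0.59 (rho 0.60, without the 2 farthest 0.59, adjusted permutation p = 0.000336 for r and 0.000256 for rho). *AGP1* had an r of 0.17 (rho 0.12, without them 0.12, adjusted permutation p = 0.211 for r and 0.422 for rho). The within-group SD was 1.42 on the log2 scale for *TAT2*, 0.36 for *GNP1*, 0.33 for *TAT1*, 0.27 for *HIP1* and 0.21 for *AGP1*.

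**Figure D4:**
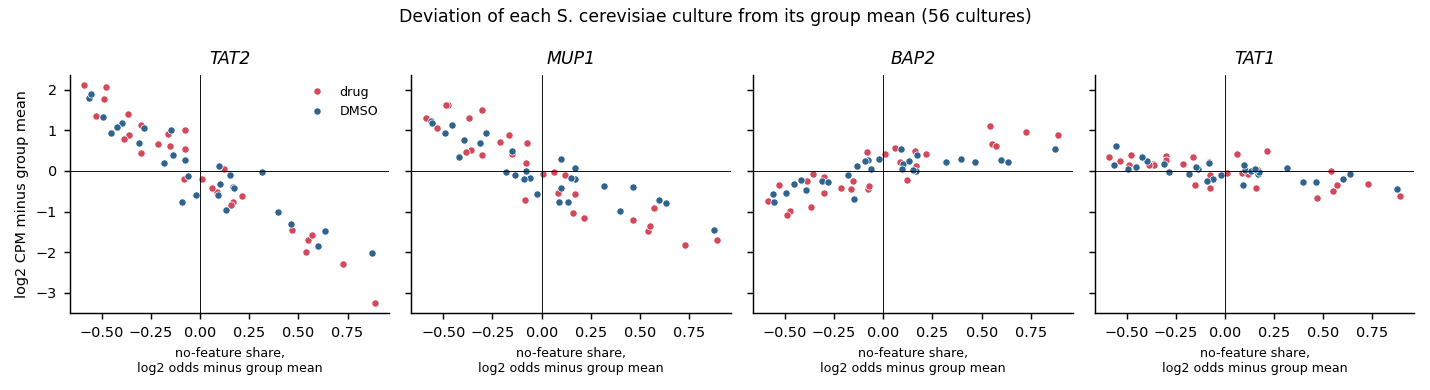
Deviation of each of the 56 *S. cerevisiae* cultures from its group mean in log2 CPM (vertical) against the deviation of its no-feature read share in log2 odds (horizontal), drug in red and DMSO in blue. *TAT2* (r = -0.95) and *MUP1* (r = -0.90) fall along the axis, *BAP2* (r = 0.81) rises, and *TAT1* (r = -0.68) moves over a narrower range.

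Repeat libraries of a single culture also differed. The DMSO part of PKA-AS ΔRph1/Gis1 culture 2 was sequenced as a first library, a repeated library preparation and a repeated RNA extraction, with no-feature shares of 4.93%, 8.42% and 11.3%. *TAT2* was at 109, 13.6 and 11.4 CPM in them, and *BAP3* at 261, 51.2 and 74.3 CPM. *TAT1* was at 169, 159 and 178 CPM and *HIP1* at 402, 468 and 472 CPM, so these differed by 1.12-fold and 1.17-fold from lowest to highest, against 9.54-fold for *TAT2*. The drug part of the same culture had no-feature shares of 6.27% and 7.52% in its first library and repeated preparation. These 2 libraries did not show this contrast. They differed by 1.21-fold for *TAT2*, 1.67-fold for *BAP3*, 1.32-fold for *HIP1*, 1.17-fold for *TAT1* and 1.92-fold for *GAP1*. Its repeated extraction, left out of all fits as marked dropped, had a no-feature share of 19.5% and 271864 reads on genes. There *TAT2* was at 0 CPM, against 59.3 and 49.0 CPM in the other 2 libraries. *BAP3* was at 18.6 CPM against 73.6 and 44.1 CPM, and *TAT1* at 31.0 CPM against 7.32 and 8.58 CPM. With the no-feature share as a covariate, added after the data were seen, the 4 members called in PKA-AS without deletion stayed called with LFC values of -4.22 (*TAT1*), -2.55 (*GNP1*), -2.30 (*HIP1*) and 1.13 (*AGP1*). *BAP2* (LFC -1.52, adjusted p = 1.48e-06) and *MUP1* (LFC 1.37, adjusted p = 0.000353) were then called too, *TAT2* turned to 0.50 ± 0.32 and *BAP3* was at -0.49 ± 0.27. The share itself averaged 7.24% with drug and 4.75% with DMSO in this strain, so the fit cannot fully separate it from the drug. The *GNP1* interactions were called as well (1.12 for ΔMsn2/4, adjusted p = 0.000844; 1.19 for the loss of all 4 genes, adjusted p = 0.000338). The sign of the *TAT2* value thus turned with this covariate, and the *BAP3* value moved by more than 1.5 times. What sets the difference between libraries was not tested.

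Profiles most like those of the members were sought among genes with at least 10 counts on average, by Pearson's r of the mean log2 CPM over the 16 *S. cerevisiae* groups, as a description. The genes nearest to *TAT1* were *MSB1* (r = 0.99), *KRS1* (0.98) and *MKC7* (0.98). *GNP1* was most like *TEF4* (0.99), *KEL3* (0.99) and *RPL5* (0.99), and *HIP1* most like *RFU1* (0.99), YCR087C-A (0.98) and *HAS1* (0.98). *AGP1* was less closely matched, by *BAG7* (0.85), *DDP1* (0.84) and *HSV2* (0.83). For *TAT2* the nearest was *PDC1* (0.94), and for *DIP5* *BUD8* (0.78). Between members, r was 0.96 for *GNP1* and *TAT1*, 0.92 for *GNP1* and *HIP1*, and -0.40 for *AGP1* and *GNP1*.

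In *K. lactis* PKA-AS without deletion, 5 of 6 orthologs were called (1 higher, 4 lower), with 45.1% of all genes called, and the median LFC was -1.80 against -0.04 over all genes. The *HIP1* ortholog was at 5.55, 5.09, 7.78 and 10.5 CPM in the drug cultures 1, 2, 3 and 2017, against 79.6, 74.8, 37.7 and 59.5 CPM with DMSO (LFC -3.09 ± 0.60 SE, n = 4 each, edgeR adjusted p = 5.47e-05). The *TAT2* ortholog was at 5.00, 4.72, 3.54 and 14.6 CPM with drug, against 60.6, 66.4, 27.9 and 58.8 CPM with DMSO (LFC -2.83 ± 0.34 SE, edgeR adjusted p = 2.12e-08). Both were separated from their DMSO values in every culture.

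The *MUP1* ortholog was at 4.44, 5.09, 1.41 and 8.60 CPM with drug, against 23.2, 28.7, 14.3 and 24.4 CPM with DMSO (LFC -2.09 ± 0.39 SE, edgeR adjusted p = 2.87e-05), with 2 to 37 reads behind the drug values. The single ortholog of *AGP1* and *GNP1* was at 23.3, 36.3, 37.5 and 61.6 CPM with drug, against 125, 143, 98.6 and 89.8 CPM with DMSO. It fell by 1.51 on the log2 scale (SE 0.30, edgeR adjusted p = 9.75e-05), the direction of *GNP1* and not of *AGP1* in *S. cerevisiae*; the species were not tested against each other.

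The *GAP1* ortholog rose to 26.6, 30.2, 43.1 and 27.2 CPM with drug, against 15.8, 22.7, 23.3 and 13.6 CPM with DMSO (LFC 0.76 ± 0.22 SE, edgeR adjusted p = 0.00399). This call was lost without DMSO culture 1, DMSO culture 2017 or drug culture 3, with LFC values of 0.68, 0.63 and 0.59. The *DIP5* ortholog, with the highest mean of the 6 in this strain, was at 299, 365, 414 and 299 CPM with drug and 95.4, 175, 297 and 304 CPM with DMSO (LFC 0.66 ± 0.37 SE, edgeR adjusted p = 0.125).

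**Figure D5:**
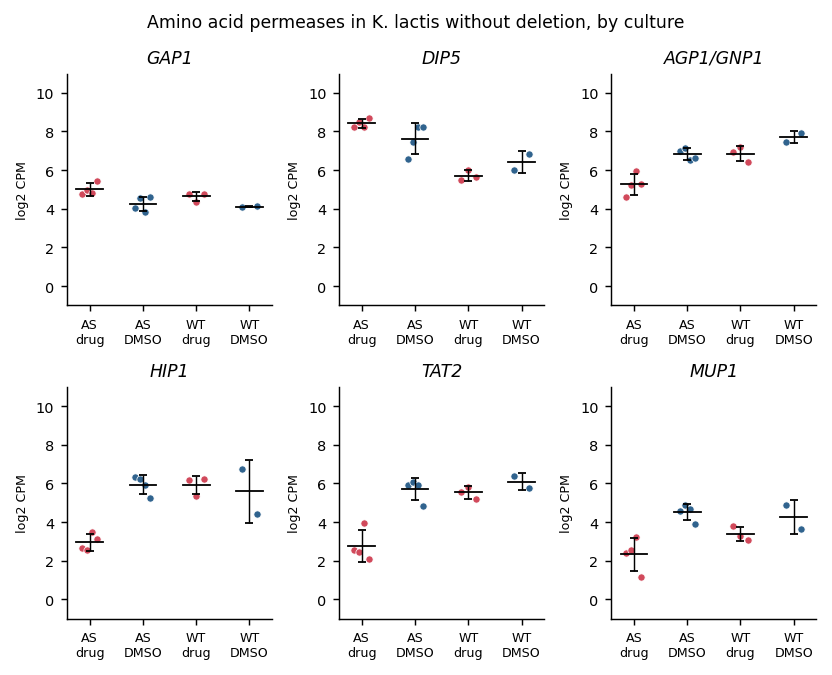
Level of the 6 permease orthologs in *K. lactis* without deletion, as log2 CPM per culture, with group means and SD, for PKA-AS (AS) and PKA-WT (WT) with drug (red) or DMSO (blue). The orthologs of *AGP1*/*GNP1*, *HIP1*, *TAT2* and *MUP1* lie lower in the PKA-AS drug cultures than with DMSO, with means of 39.7 against 114 CPM for *AGP1*/*GNP1* and 7.22 against 62.9 CPM for *HIP1*.

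In the *K. lactis* deletion strains the counts were 3 of 6 with the Msn2/4 ortholog deleted (42.4% of all genes called), 4 of 6 with the Rph1/Gis1 ortholog deleted (41.5%) and 3 of 6 with both deleted (32.1%). The *TAT2* ortholog fell in all of them, with LFC values of -1.87, -2.65 and -1.63. The *DIP5* ortholog, not called without deletion, rose in each of them. It was at 256, 369, 783 and 541 CPM with drug, against 77.0, 236, 160 and 227 CPM with DMSO, with the Msn2/4 ortholog deleted (LFC 1.48 ± 0.37 SE, n = 4 each, edgeR adjusted p = 0.00118), a call lost without drug culture 3 (1.17, adjusted p = 0.0105). With the Rph1/Gis1 ortholog deleted it was at 308, 479, 539 and 392 CPM with drug, against 68.5, 94.5, 90.8 and 110 CPM with DMSO (LFC 2.24 ± 0.38 SE, edgeR adjusted p = 1.02e-05). With both deleted it was at 460, 681 and 755 CPM with drug, against 70.9, 176 and 79.4 CPM with DMSO (LFC 2.54 ± 0.44 SE, n = 3 each, edgeR adjusted p = 2.2e-05). All drug cultures of these strains were above all DMSO cultures of the same strain. Some other calls were less firm. That of the *AGP1*/*GNP1* ortholog with the Msn2/4 ortholog deleted held in 11 of 14 alternative fits. That of the *HIP1* ortholog with the Rph1/Gis1 ortholog deleted held in 9 of 14, and that of the *MUP1* ortholog with both deleted in 6 of 12. The *TAT2* ortholog kept its call in all of them.

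The difference of these effects from that without deletion was not called for any ortholog: 0 of 6 with the Msn2/4 ortholog deleted (0.0379% of all genes), with the Rph1/Gis1 ortholog deleted (0.36%) and with both deleted (1.04%), where 1, 2 and 3 had an unadjusted p under 0.05 and DESeq2 called 0 in each. Of all 5271 genes, 236, 350 and 641 had an unadjusted p under 0.05 in these interactions. For the *DIP5* ortholog the interaction was 1.88 ± 0.56 (SE) with both deleted (edgeR adjusted p = 0.0744). In *K. lactis* PKA-WT, 0 of 6 orthologs were called (6.15% of all genes) and DESeq2 called 0. An unadjusted p under 0.05 was found for 2 of them and for 1508 of all 5271 genes. Even so, the *GAP1* ortholog averaged 24.3 CPM with drug and 16.4 CPM with DMSO there, and the *AGP1*/*GNP1* ortholog 118 and 209 CPM. Neither had overlapping groups, and both moved in the direction seen in PKA-AS. With 3 drug and 2 DMSO cultures groups separate easily, and the share of all genes without overlap is not given here. With overlapping ranges, the means with drug and DMSO were 9.92 and 20.3 CPM for *MUP1*, 46.2 and 68.9 CPM for *TAT2*, 61.8 and 63.6 CPM for *HIP1*, and 52.5 and 88.3 CPM for *DIP5*. The drug effect in PKA-AS minus that in PKA-WT was called for 1 of 6 (11.4% of all genes), the *TAT2* ortholog (-2.23 ± 0.52 SE, edgeR adjusted p = 0.0024). PKA-WT has 2 DMSO cultures, so leaving out 1 of them leaves a single sample that is assumed to vary like the other groups. Under that assumption the *TAT2* call was lost without DMSO culture 2 (adjusted p = 0.0446). Without DMSO culture 1 the *HIP1* ortholog was called (-4.69, adjusted p = 0.00386), where the full set gave -3.02 and an adjusted p of 0.0185. With DMSO, 0 of 6 were called with the Msn2/4 ortholog deleted (0.0%), the Rph1/Gis1 ortholog deleted (1.82%), both deleted (1.57%) or in PKA-AS against PKA-WT (0.0%). DESeq2 called 0 in each. At an unadjusted p under 0.05 there were 0, 1, 1 and 2, against 65, 546, 614 and 265 of all 5271 genes.

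Genes that act around the permeases were counted in 5 lists for PKA-AS without deletion. Of 10 other *S. cerevisiae* permease genes, 2 rose and 2 fell, with a median LFC of -0.09. The proline permease gene *PUT4* rose to 291 ± 123 CPM with drug, against 8.04 ± 4.89 CPM with DMSO (SD, n = 4 each; LFC 5.23), and *ALP1*, an arginine permease gene, also rose (LFC 2.17). *MMP1*, for S-methylmethionine, and *LYP1*, for lysine, fell (LFC -1.80 and -0.89). In the *LYP1* ortholog of *K. lactis*, the 1 gene called among 6 tested, the LFC was -2.86.

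Of 9 tested genes of SPS sensing, 2 rose and 1 fell (median LFC -0.11). *ASI2* (LFC 1.34) and *ASI3* (LFC 1.02), whose products hold back unprocessed Stp1 and Stp2 at the inner nuclear membrane, rose, and the di- and tripeptide transporter gene *PTR2*, an SPS target, fell (LFC -1.56). In *K. lactis* 1 of 8 was called, the *ASI1*/*ASI3* ortholog, which rose (LFC 1.92).

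Of 15 genes listed for nitrogen catabolite repression, regulators and targets together, 5 rose and 3 fell (median LFC 0.19). The risen genes named by size were *UGA1* (GABA transaminase, LFC 3.12), *DAL80* (a GATA repressor, LFC 3.01), *PUT1* (proline oxidase, LFC 2.75) and *GDH2* (glutamate dehydrogenase, LFC 2.70), and the fallen ones were *MEP3* (an ammonium permease, LFC -1.97) and *CAR1* (arginase, LFC -1.37). In *K. lactis* 2 of 12 rose, *GDH2* (LFC 2.36) and *UGA1* (LFC 2.18), and 2 fell.

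Of 12 genes for permease exit from the endoplasmic reticulum and for endocytosis, 4 rose and 0 fell (median LFC 0.79). They were the arrestin genes *CSR2* (LFC 4.30), *ECM21* (LFC 1.71) and *ROD1* (LFC 1.27), whose products direct the ubiquitin ligase Rsp5 to plasma membrane proteins, and the kinase gene *NPR1* (LFC 1.03). In *K. lactis* 3 of 8 rose, including the *ECM21*/*CSR2* ortholog (LFC 1.07) and *RSP5* (LFC 0.64), and the permease chaperone gene *SHR3* fell (LFC -1.16). Of 10 vacuolar amino acid transporter genes tested, 3 rose and 1 fell (median LFC 0.42). *RTC2* (LFC 5.09), *AVT6* (LFC 2.75) and *AVT7* (LFC 1.54) rose and *YPQ2* fell (LFC -1.37). In *K. lactis* 3 of 8 rose, led by *AVT1* (LFC 2.38). These counts stand beside 41.9% of all genes called in *S. cerevisiae* and 45.1% in *K. lactis*.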

How the data were processed

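Libraries were made with the QuantSeq 3′ FWD kit. The authors trimmed and aligned the reads in the Bluebee pipeline (R64 for *S. cerevisiae*, ASM241v1 for *K. lactis*) and counted them with htseq on genes extended by 3′ UTRs. For every library they deposited unnormalized counts by gene, and also log2 values (rlog means per condition), of which only the column of gene names was read. The columns of fold changes and adjusted p-values that the authors deposited hold their own comparisons and were not used. The members, lists and tests were chosen with earlier results of these data known.

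A library that its label marks as dropped was left out, and libraries made again from a culture were added together, so 59 *S. cerevisiae* libraries gave 56 cultures. The 35 *K. lactis* libraries are 1 culture each. Rows that name no gene were left out of library sizes. Genes took 72.2% to 87.0% of reads for *S. cerevisiae*, against 83.1% to 90.0% for *K. lactis*. Reads on no feature took 3.24% to 11.3% for *S. cerevisiae*, against 9.21% to 14.5% for *K. lactis*. The filter asked for 2 or more counts in 3 or more cultures. One factor of strain and treatment was fitted per species in edgeR 4.0.16 (TMM, quasi-likelihood test, R 4.3.3), and p-values were adjusted over all genes tested. The SE is the LFC divided by the root of the F statistic. Log2 CPM used a prior count of 2. Cultures carry the error of these samples only, and depth limits the lowest values (8 to 17 reads for *TAT1* with drug). The procedure was tested on simulated data.

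The text names all members, and from each list up to 6 genes with the largest called change and a mean of at least 10 counts. Drug and DMSO parts of a culture share its number, because each culture was divided after growth. Their deviations from the group means had a median correlation of 0.54 over 28 *S. cerevisiae* pairs (24 above 0.1) and 0.50 over 17 *K. lactis* pairs (13 above 0.1). Alternatives were DESeq2 1.42.0, RLE factors, no filter, only the groups compared, the replicate block, leaving out the 2017 cultures or each culture in turn, and the first library of a culture only. After the data were seen, leaving out the 2 libraries under 600000 counts and a no-feature covariate were added.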

Additional observations from a re-analysis of the deposited data

Results flagged for a closer look

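Without deletion, the drug effect differed between PKA-AS and PKA-WT for *AGP1* (1.00), *GNP1* (-2.28), *TAT1* (-3.99) and *HIP1* (-1.89), and for the *K. lactis* *TAT2* ortholog (-2.23), as LFC differences called in the interaction test. It differed between deletion strains and no deletion for *TAT1*, by 2.81 in ΔMsn2/4 and 3.05 in the strain lacking all 4 genes.

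A single culture stood apart from the other 3 of its group in 8 of 116 groups of 4 examined, by the gap on the log2 scale relative to the range, where chance gives about 1 in 20. *GAP1* was at 39.0 CPM in drug culture 1 of PKA-AS without deletion, against 22.1 to 22.3 CPM in the others, and *AGP1* was at 351 CPM in the same culture, against 274 to 282 CPM. In ΔRph1/Gis1 with DMSO, *AGP1* was at 91.6 CPM in culture 4 and 126 to 132 CPM in the others, and *MUP1* at 206 CPM in culture 1 and 92.9 to 106 CPM in the others. In the strain lacking all 4 genes, *GNP1* was at 334 CPM in DMSO culture 1 and 476 to 497 CPM in the others, *TAT1* at 53.8 CPM in drug culture 1 and 44.9 to 46.3 CPM in the others, and *HIP1* at 76.0 CPM in drug culture 2 and 64.9 to 66.0 CPM in the others. The *K. lactis* *TAT2* ortholog was at 27.9 CPM in DMSO culture 3 without deletion, against 58.8 to 66.4 CPM in the others.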

How the results depend on the processing

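Among LFC values of called members refitted without a single culture, 316 kept their direction and their side of the threshold and 27 kept only the direction. Under the other alternatives 279 kept both and 9 only the direction, and none turned round. The calls of *TAT1*, *GNP1*, *HIP1* and *AGP1* in *S. cerevisiae* PKA-AS without deletion held under all 17 alternatives each, with LFC values from -4.75 to -4.22 for *TAT1*, -2.55 to -2.07 for *GNP1*, -2.30 to -1.90 for *HIP1* and 1.08 to 1.24 for *AGP1*. The *TAT1* interactions held under all 25 alternatives each (2.66 to 3.02 for ΔMsn2/4, 2.75 to 3.26 for the loss of all 4 genes). The smallest rise, *AGP1* in the strain lacking all 4 genes (0.50 to 0.69), kept its call in 8 of 16. *GNP1* in ΔMsn2/4 lost its call without drug culture 1 (-0.93), 2 (-0.87) or 3 (-0.95), the last being 1 of the 2 shallow libraries.

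Counts of members called moved by more than 1.5 times in these cases, and the cause was not tested. Apart from DESeq2, the calls over all genes under these alternatives are not given here, so the counts have no baseline. With only the groups compared, 2 were called in *S. cerevisiae* ΔMsn2/4, where 4 were called in the fit over all groups, and 0 in the *K. lactis* difference of PKA-AS and PKA-WT, where 1 was. The replicate block gave 7 in ΔRph1/Gis1, where 4 were called without it; besides this and the single calls given for *BAP2* and *BAP3*, the pairing added the *MUP1* ortholog with the Msn2/4 ortholog deleted and the *GAP1* ortholog with both deleted, and it changed no other call. The no-feature covariate gave 8 in ΔRph1/Gis1, 2 in each of the ΔMsn2/4 and all-gene interactions, 1 in PKA-AS against PKA-WT with DMSO and 5 in *K. lactis* with the Msn2/4 ortholog deleted. DESeq2 gave 1 in that DMSO comparison, where it called 2 of all 5779 genes. It gave 5 in that *K. lactis* strain (2425 of all 5271 genes) and 2 in the *K. lactis* difference of PKA-AS and PKA-WT (771 of all genes). Leaving out each culture in turn gave 0 to 2 in the last of these, where a lone PKA-WT DMSO culture is assumed to vary like the other groups. RLE factors moved the median LFC of all genes by more than 0.1 in that comparison alone, to 0.07, where TMM gave -0.05.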
